A study of Homo sapiens with 22 samples.

Results

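HMOX1 and 9 other genes of heme breakdown and iron handling were followed in 2 acute myeloid leukemia cell lines treated with the FTO degrader FP54. The 10 genes, of 20411 in each expression table, were selected from a measured value, the very strong rise of HMOX1 in NB4 cells, and the other 9 were added for their role. HMOX2, BACH1, BLVRA and BLVRB stand next to HMOX1 in heme breakdown and its control, and FTH1, FTL, TFRC, SLC40A1 and NCOA4 store and move iron. All values of NB4 cells treated with FP54 against NB4 cells treated with DMSO are therefore a description with no test. The rule of the choice did not use the same contrast in MOLM-13 cells, which was tested. The genes were chosen with earlier results of these data known, so the MOLM-13 p-values cannot be called independent of the choice.

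MOLM-13 is an acute monocytic leukemia line with an MLL fusion and an internal tandem duplication in FLT3, and NB4 is an acute promyelocytic leukemia line with a PML-RARA fusion. Wild-type cells of each line received 2 μM FP54 or the solvent DMSO (mock) for 48 h, with 3 RNA-seq libraries in each of the 4 groups. FP54 is a heterobifunctional molecule that recruits an E3 ubiquitin ligase to FTO, an RNA demethylase that removes N6-methyladenosine (m6A), so that the FTO protein is degraded. The labels do not say whether the 3 libraries of a group came from separate cultures, and p-values measure only the spread between these libraries. In bulk RNA, fewer cells of a type and less RNA per cell cannot be told apart.

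Heme oxygenases open the heme ring and release iron, carbon monoxide and biliverdin, which the biliverdin reductases turn into bilirubin. HMOX1 is the inducible and HMOX2 the constitutive enzyme, and BACH1, a transcription factor that loses its grip on DNA when it binds heme, represses HMOX1 and the ferritin genes in competition with NRF2. Free iron is taken up by ferritin, made of FTH1 (heavy chain, the ferroxidase) and FTL (light chain), enters cells through the transferrin receptor TFRC, leaves them through ferroportin, SLC40A1, and is returned from ferritin to the cell by NCOA4, the receptor for ferritin autophagy.

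Several of these transcripts carry iron-responsive elements, hairpins that iron regulatory proteins bind when iron is scarce. In the 5′ UTR such binding blocks translation, and in the 3′ UTR it protects the mRNA. They are shown because the 4 genes that carry them differed in direction in the libraries. Hairpins with a CAGTGN loop, 5 paired bases on each side of it and an unpaired C before the stem were searched for. The search covered the canonical GENCODE transcripts of all 10 genes, read from the hg38 genome. Only those of FTH1, FTL, SLC40A1 and TFRC held such hairpins. In each sequence below, written 5′ to 3′ on the strand of the gene, the capitals mark the unpaired C and the 6 bases of the loop.
FTH1, 5′ UTR, exon 1, chr11:61967573-61967602, minus strand: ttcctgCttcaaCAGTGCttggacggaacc
FTL, 5′ UTR, exon 1, chr19:48965335-48965364, plus strand: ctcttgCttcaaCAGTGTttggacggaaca
SLC40A1, 5′ UTR, exon 1, chr2:189580660-189580689, minus strand: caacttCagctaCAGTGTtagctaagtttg
TFRC, 3′ UTR, exon 19, element 1, chr3:196050978-196051007, minus strand: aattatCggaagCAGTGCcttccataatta
TFRC, 3′ UTR, exon 19, element 2, chr3:196050574-196050603, minus strand: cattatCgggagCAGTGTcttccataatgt
TFRC, 3′ UTR, exon 19, element 3, chr3:196050509-196050538, minus strand: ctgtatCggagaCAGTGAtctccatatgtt
TFRC, 3′ UTR, exon 19, element 4, chr3:196050462-196050491, minus strand: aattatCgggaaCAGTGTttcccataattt
FTH1, FTL and SLC40A1 each held 1 such hairpin in the 5′ UTR and TFRC held 4 in the 3′ UTR. The libraries measure RNA and do not show translation or protein binding to these hairpins.

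The regulators NRF2 and BACH1, each paired with a small MAF protein, bind elements with the letters TGACNNNGC, and matches upstream of HMOX1 are shown because that gene had the largest change of the 10. The motif was searched on both strands in the 10000 bases before the annotated start of 20317 genes, of which 96.6% held at least 1 match, with a median of 4. HMOX1 held 10 matches, a number reached or passed by 1.31% of these genes, FTH1 held 9 (2.76%), BLVRB 7 and HMOX2 6. BACH1 and NCOA4 held 4 each, BLVRA and TFRC 3, FTL 2 and SLC40A1 0. These counts include repeats. The FTH1 matches at 7122, 6984, 6845 and 6708 bases before the start lie in 1 identical 29-base sequence. The HMOX1 matches at 8342, 8313, 8284 and 8255 bases stand close together. The narrower form TGACTCAGC, picked after the matches had been seen and overlapping the TGACTCA site of AP-1 factors, stood before 13.0% of the genes. HMOX1 had 4 copies, as many as no other of the 20317 genes, while BACH1, BLVRA, FTH1 and FTL had 1 each and the other 5 had none. The 4 copies before HMOX1 and those before the ferritin genes are given below on the plus strand of hg38 for HMOX1 and FTL and on the minus strand for FTH1. The capitals mark the match, which reads as its reverse complement where it lies on the opposite strand.
HMOX1, 8342 bases before the start, chr22:35372009-35372037: tgtttttcctGCTGAGTCAcggtcccgag
HMOX1, 8284 bases before the start, chr22:35372067-35372095: atctgttttcGCTGAGTCAcggtcccggt
HMOX1, 8255 bases before the start, chr22:35372096-35372124: gtctgttttcGCTGAGTCAcggtctagag
HMOX1, 3205 bases before the start, chr22:35377146-35377174: gctagattttGCTGAGTCAccagtgcctc
FTH1, 4417 bases before the start, chr11:61972033-61972061: ctagcagagtGCTGAGTCAcggtgggaca
FTL, 1367 bases before the start, chr19:48963932-48963960: gagctcagcaTGACTCAGCagtcgctgcc
A match describes letters in the genome and not a bound site, and these windows reach neither into the genes nor beyond 10000 bases.

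**Figure D1:**
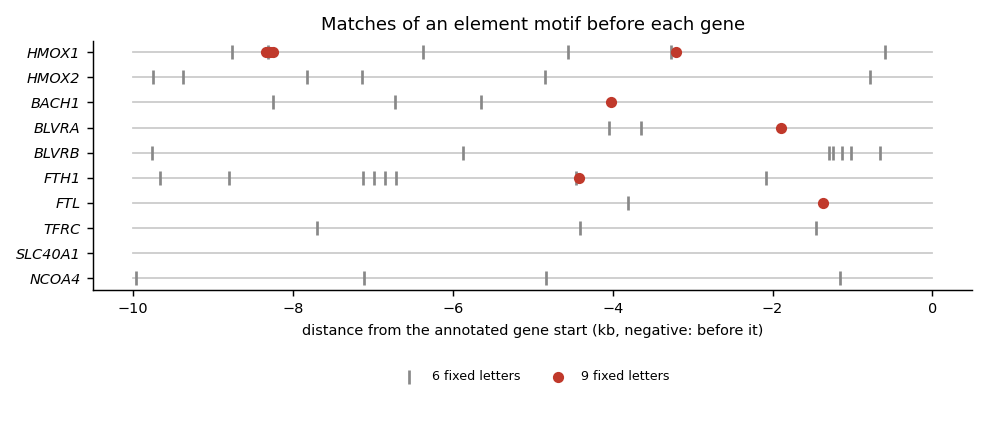
Position of each motif match in kilobases before the annotated gene start for the 10 genes. Grey ticks are matches with the 6 fixed letters of the motif and red circles those with all 9 letters fixed, of which HMOX1 has 4, with 3 of them close together, and 4 other genes have 1 each.

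Expression is given as RPKM, reads per kilobase of transcript scaled to the total reads of the library, as deposited, and read counts were recovered from it with gene lengths. Depth is given as the scaling total of reads inferred from the RPKM values, not as a counted number. In MOLM-13 cells the DMSO libraries held 16299702 to 17346913 such reads. FP54 replicates 1 to 3 held 19191056, 5829731 and 12028682, with FP54 replicate 2 the shallowest of all. In NB4 cells the DMSO libraries held 20654057 to 22344266 reads and the FP54 libraries 10595648 to 13071304, a difference in depth that runs with the treatment. The 6 MOLM-13 markers, led by FLT3, summed to 115 to 150 RPKM in MOLM-13 libraries and 21.8 to 23.5 RPKM in NB4 libraries. With DMSO, the 6 granule and other genes used as NB4 markers summed to 727 to 1074 RPKM in MOLM-13 cells. In NB4 cells they summed to 2154 to 2413 RPKM, most of it MPO (mean 2170 RPKM). PRTN3 led in MOLM-13 cells (mean 413.5 RPKM). The higher sum in NB4 cells thus rests on MPO, and the set is not particular to NB4 cells. A set of 415 olfactory receptor genes, silent in blood cells, had a mean level of 0.00387 to 0.00833 RPKM in the MOLM-13 libraries, 0.00169 to 0.00373 in NB4 libraries with DMSO and 0.0497 to 0.0548 in NB4 libraries with FP54.

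HMOX1 lies at chr22:35380361-35394214 on the plus strand of hg38. In NB4 cells treated with DMSO it was among the low genes, with 0.735, 0.794 and 0.330 RPKM in replicates 1 to 3 (35, 39 and 17 reads), and with FP54 it stood at 37.9, 35.8 and 33.6 RPKM (925, 960 and 1014 reads). The lowest FP54 library stood far above the highest DMSO library, and the 3 FP54 libraries lay close together. The ratio of the means, 35.8 ± 2.11 RPKM against 0.620 ± 0.253 RPKM (SD, n = 3), was 57.7, and the fitted log2 fold change of RPKM + 0.1 was 5.71 ± 0.23 (SE). Since the DMSO mean lies under the filter of a mean of 1 RPKM over the 6 libraries, HMOX1 entered the fit only through its FP54 values. Ordered among all genes of a library, it moved from rank 9791 to 10630 with DMSO to rank 997 to 1169 with FP54. The olfactory receptor mean in the same libraries, at most 0.0548 RPKM, was far below the HMOX1 level.

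In MOLM-13 cells HMOX1 started higher and ended lower. It had 2.23, 3.33 and 1.72 RPKM with DMSO (85, 125 and 69 reads) and 6.98, 3.87 and 3.17 RPKM with FP54 (309, 52 and 88 reads), and the groups overlapped. FP54 replicate 1 was well above the rest, and replicate 3 lay below the highest DMSO library. The log2 fold change was 0.89 ± 0.31 (SE) and did not pass the call rule used here, which asks of a gene both an unadjusted limma p under 0.01 and a fitted change of 0.5 or more in size (limma adjusted p = 0.0676). The result rests on single libraries: it was 0.56 without FP54 replicate 1 (limma adjusted p = 0.255), and it was called without DMSO replicate 2 (1.13, adjusted p = 0.0298) and without FP54 replicate 3 (1.12, adjusted p = 0.0382).

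HMOX2, the constitutive heme oxygenase, did not share this course. In NB4 cells it had 10.3, 12.6 and 11.4 RPKM with DMSO and 7.97, 8.52 and 7.50 RPKM with FP54, so that every FP54 library was lower, by 0.50 ± 0.10 (SE) on the log2 scale. This difference sits at the edge of the fold cutoff, and fell to 0.43 in size without DMSO replicate 2 and to 0.46 without FP54 replicate 3. In MOLM-13 cells HMOX2 had 3.88, 2.43 and 4.73 RPKM with DMSO and 2.48, 3.30 and 2.07 RPKM with FP54, with overlap and a log2 fold change of -0.45 (limma adjusted p = 0.240). HMOX2 overlaps NMRAL1 on the opposite strand, and whether the counting used strand was not given in the sources used here.

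The ratio of HMOX1 to HMOX2 within a library shows how the share of the 2 enzymes' transcripts changed. In NB4 cells the ratio of RPKM was 0.0546 ± 0.0226 (SD, n = 3) with DMSO and 4.48 ± 0.278 with FP54, so that the minor transcript became the major one. In MOLM-13 cells it was 0.768 ± 0.528 with DMSO and 1.84 ± 0.861 with FP54, with overlap (exact permutation test, two-sided, p = 0.2, where 3 libraries against 3 allow no p below 0.1).

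BACH1, the repressor of HMOX1, differed little. It had 6.30, 4.20 and 5.30 RPKM with DMSO and 6.65, 5.83 and 6.98 RPKM with FP54 in NB4 cells, and 9.95, 11.3 and 8.17 RPKM against 13.1, 10.9 and 15.1 RPKM in MOLM-13 cells. The groups overlapped in both lines. The log2 fold change was 0.31 ± 0.14 (SE) in NB4 and 0.41 ± 0.18 in MOLM-13 cells, where it was not called (limma adjusted p = 0.128). BACH1 overlaps GRIK1 on the opposite strand.

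**Figure D2:**
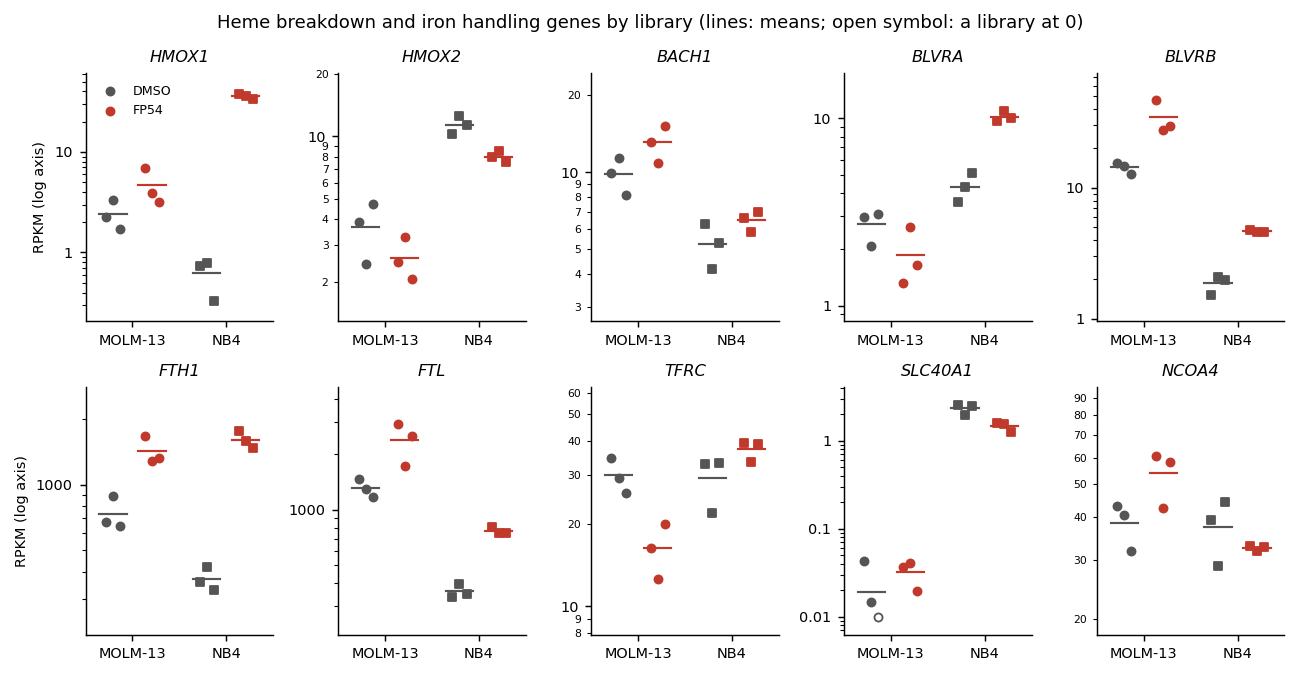
RPKM of the 10 genes in each of the 12 libraries on log axes, with circles for MOLM-13, squares for NB4, grey for DMSO, red for FP54 and lines at the means of 3 libraries. HMOX1 in NB4 cells is the widest gap, from 0.330 to 0.794 RPKM with DMSO up to 33.6 to 37.9 RPKM with FP54, and the open circle is the MOLM-13 library with no SLC40A1 read, drawn at 0.01.

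The biliverdin reductases act on the product of both heme oxygenases. BLVRB was higher with FP54 in both lines, and BLVRA was higher in NB4 cells but not called in MOLM-13 cells. The difference between the lines was not tested. BLVRB, which reduces flavins as well as biliverdin, rose in MOLM-13 cells from 15.4, 14.8 and 12.8 RPKM with DMSO to 46.9, 27.5 and 29.7 RPKM with FP54. The groups did not overlap, and the rise of 1.23 ± 0.20 (SE) on the log2 scale had an adjusted p of 0.00466 by limma. In NB4 cells BLVRB was a low transcript, with 1.53, 2.10 and 1.97 RPKM with DMSO and 4.8, 4.58 and 4.6 RPKM with FP54, a log2 fold change of 1.29 ± 0.13 (SE).

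BLVRA, the main reductase for the biliverdin made from heme in adults, had 3.59, 4.30 and 5.09 RPKM with DMSO and 9.64, 10.9 and 10.0 RPKM with FP54 in NB4 cells. Every FP54 library was higher, by 1.23 ± 0.13 (SE) on the log2 scale. In MOLM-13 cells it had 2.99, 2.09 and 3.07 RPKM with DMSO and 1.32, 2.64 and 1.64 RPKM with FP54, with overlap and a log2 fold change of -0.55 (limma adjusted p = 0.162). Without FP54 replicate 2, the shallow library, it was called lower (-0.82, limma adjusted p = 0.0353).

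The RPKM ratio of BLVRB to BLVRA was 5.46 ± 1.49 (SD, n = 3) with DMSO and 21.4 ± 12.9 with FP54 in MOLM-13 cells. These groups did not overlap (exact permutation test, two-sided, p = 0.1, the smallest the design allows). In NB4 cells, where both reductases were higher, the ratio was 0.434 ± 0.0501 with DMSO and 0.459 ± 0.0387 with FP54 and the groups overlapped.

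Ferritin transcripts were the most abundant of the 10 in every library, and both chains were higher with FP54 in both lines. In MOLM-13 cells FTH1 rose from 675, 883 and 645 RPKM with DMSO to 1664, 1288 and 1319 RPKM with FP54, with no overlap. The log2 fold change was 0.96 ± 0.18 (SE), with an adjusted p of 0.00744 by limma. FTL rose in the same libraries from 1475, 1292 and 1170 RPKM to 2910, 1734 and 2504 RPKM, by 0.83 ± 0.20 (SE) on the log2 scale (limma adjusted p = 0.0210). FP54 replicate 2 was the lowest of its group for both chains. The FTL call was lost without DMSO replicate 3 (0.75, limma adjusted p = 0.101) and without FP54 replicate 1 (0.67, limma adjusted p = 0.102).

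In NB4 cells the heavy chain differed more than the light chain. FTH1 had 360, 422 and 329 RPKM with DMSO and 1758, 1586 and 1470 RPKM with FP54, 4.33 times the DMSO mean, and a log2 fold change of 2.12 ± 0.11 (SE). FTL had 337, 398 and 351 RPKM with DMSO and 809, 749 and 750 RPKM with FP54, 2.12 times the DMSO mean, and a log2 fold change of 1.09 ± 0.09 (SE). With DMSO the 2 chains stood level, and with FP54 the heavy chain had about the same level in NB4 cells as in MOLM-13 cells (1605 ± 145 against 1424 ± 209 RPKM, SD, n = 3), in tables that were normalized separately and between which no test was made. The ratio of FTH1 to FTL moved from 1.02 ± 0.0727 to 2.08 ± 0.111 in NB4 cells. In MOLM-13 cells, where FTL led throughout, it was 0.564 ± 0.113 with DMSO and 0.614 ± 0.114 with FP54 (exact permutation test, two-sided, p = 0.6).

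Together the 2 chains took 0.261% ± 0.0293 of the inferred total of reads in MOLM-13 cells with DMSO and 0.493% ± 0.0893 with FP54 (SD, n = 3). In NB4 cells they took 0.106% ± 0.0119 with DMSO and 0.389% ± 0.0318 with FP54. The groups did not overlap in either line, and in MOLM-13 cells the exact permutation test gave p = 0.1, the smallest the design allows (two-sided). Both genes have many processed pseudogenes with near-identical sequence, and FTH1 overlaps BEST1 on the opposite strand, so that their levels are uncertain where the counting could split reads.

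TFRC, which brings in transferrin-bound iron, lay on opposite sides of 0 in the 2 lines. In MOLM-13 cells it fell from 34.7, 29.2 and 26.0 RPKM with DMSO to 16.3, 12.6 and 20.0 RPKM with FP54, with no overlap. The log2 fold change was -0.89 ± 0.19 (SE), with an adjusted p of 0.0118 by limma. In NB4 cells it had 33.0, 22.0 and 33.4 RPKM with DMSO and 39.5, 33.5 and 38.9 RPKM with FP54. These values do not overlap by a margin of less than 1 RPKM, and the log2 fold change was 0.36 ± 0.15 (SE). The difference between the lines was not tested. The union of annotated TFRC exons, 17376 bases, is long, which lowers its RPKM against that of other genes but not its fold change.

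The ratio of FTH1 to TFRC, storage over import, was 24.8 ± 5.36 with DMSO and 90.1 ± 20.8 with FP54 in MOLM-13 cells (SD, n = 3, exact permutation test, two-sided, p = 0.1, the smallest the design allows). In NB4 cells it was 13.3 ± 5.12 with DMSO and 43.2 ± 4.86 with FP54. Neither pair of groups overlapped. In MOLM-13 cells FTH1 was higher and TFRC lower, while in NB4 cells both were higher and FTH1 by far the more.

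**Figure D3:**
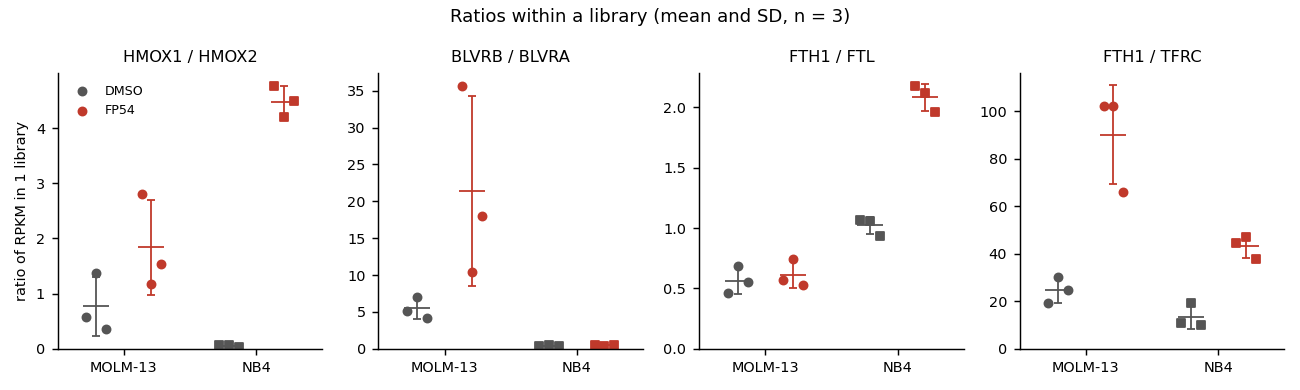
RPKM ratios within a library for 4 pairs of genes on linear axes from 0, with circles for MOLM-13, squares for NB4, grey for DMSO, red for FP54, and bars for mean and SD of 3 libraries. The HMOX1 to HMOX2 ratio reaches 4.20 to 4.75 in NB4 cells with FP54, the FTH1 to FTL ratio 1.96 to 2.17 in those libraries, and the BLVRB to BLVRA ratio parts the groups in MOLM-13 cells but overlaps in NB4 cells.

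SLC40A1, ferroportin, the iron exporter, was all but absent from MOLM-13 cells, with 3, 1 and 0 reads with DMSO and 3, 1 and 1 reads with FP54. These counts are at or under the floor of 3 reads, so no fold is given and the gene was not tested in that line. In NB4 cells it had 2.57, 1.94 and 2.47 RPKM with DMSO and 1.59, 1.55 and 1.25 RPKM with FP54, every FP54 library lower, by 0.63 ± 0.15 (SE) on the log2 scale. With quantile normalization the NB4 difference was -1.05, and with a pseudocount of 1 it was -0.43 and not past the call rule. It did not pass the rule without a filter on low values either.

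NCOA4, which delivers ferritin to the lysosome, had 39.2, 28.8 and 44.4 RPKM with DMSO and 32.8, 31.9 and 32.7 RPKM with FP54 in NB4 cells. The FP54 values fell inside the DMSO range. In MOLM-13 cells it had 43.3, 40.7 and 31.8 RPKM with DMSO and 60.8, 42.6 and 58.4 RPKM with FP54, and only replicate 2 of FP54 reached into the DMSO range. The log2 fold change of 0.48 ± 0.18 (SE) was not called (limma adjusted p = 0.0853), and without FP54 replicate 2 it was 0.64 and called (limma adjusted p = 0.0256).

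MOLM-13 cells allowed a test of 9 genes, of which 3 rose (BLVRB, FTH1 and FTL), 1 fell (TFRC) and 5 did not pass. Over all 9710 genes tested in that line, 18.3% were called, 9.3% higher and 9.04% lower, and 37.1% had DMSO and FP54 values that did not overlap, as had 4 of the 9. The median log2 fold change was 0.48 for the 9 genes and 0.00 for all genes tested. SLC40A1 is not among the 9, and the 10 genes were chosen with results of these data known.

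In NB4 cells HMOX1, FTH1, FTL, BLVRA and BLVRB passed the call rule on the higher side, SLC40A1 and HMOX2 on the lower side, and TFRC, BACH1 and NCOA4 did not pass it. Over all 9853 genes in that fit, 29.3% passed, 18.6% higher and 10.7% lower, and 60.5% had values that did not overlap between treatments, as had 8 of the 10 genes. Since this contrast chose the genes, nothing is read from these counts. The split of all genes into 1834 higher and 1050 lower, 63.6% higher, became 1280 higher and 1363 lower, 48.4% higher, with quantile normalization, under which the 10 genes kept their directions.

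**Figure D4:**
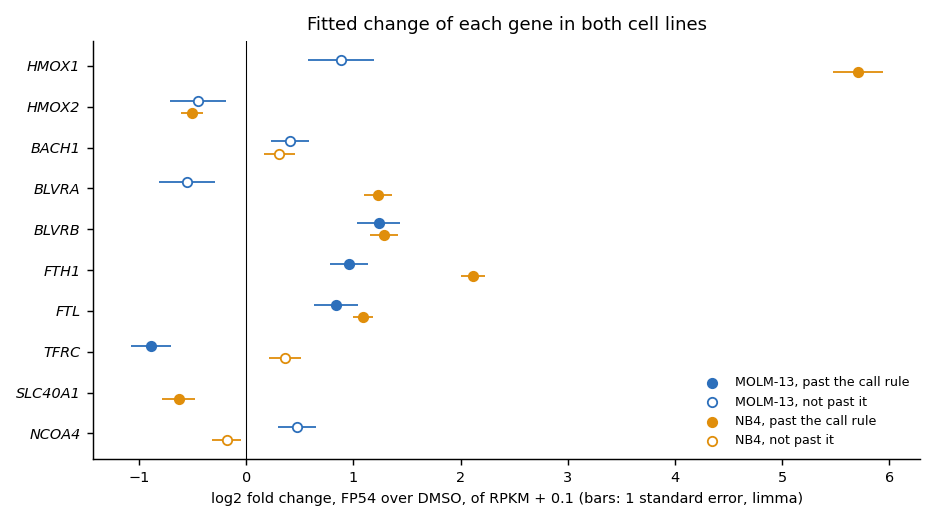
Fitted log2 fold change of RPKM + 0.1, FP54 over DMSO, for each gene in MOLM-13 (blue) and NB4 cells (orange), with bars of 1 standard error from limma and filled circles for genes past the call rule. HMOX1 in NB4 cells, at 5.71, lies apart from all others, FTH1 in NB4 cells is next at 2.12, and TFRC lies on opposite sides of 0. SLC40A1 has no MOLM-13 value.

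Ordered by level, the 10 genes kept much the same order in MOLM-13 cells under both treatments. FTL, FTH1 and NCOA4 led under both, and with FP54 BLVRB passed TFRC and HMOX1 passed HMOX2 and BLVRA. The neighbours NCOA4 and TFRC, HMOX2 and BLVRA, and BLVRA and HMOX1 overlapped with DMSO, and NCOA4 and BLVRB, TFRC and BACH1, HMOX1 and HMOX2, and HMOX2 and BLVRA overlapped with FP54. In NB4 cells HMOX1 was the lowest of the 10 with DMSO, below BLVRB (1.87 RPKM), and in place 4 with FP54, where it overlapped TFRC (37.3 ± 3.27 RPKM) and stood above NCOA4 (32.5 ± 0.509 RPKM). The other overlapping neighbours in NB4 cells, all with DMSO, were FTH1 and FTL, NCOA4 and TFRC, BACH1 and BLVRA, and SLC40A1 and BLVRB.

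The genes whose course over the 12 libraries was nearest to that of HMOX1, by Euclidean distance between log2(RPKM + 0.1) values with the DMSO mean of each line subtracted, were THBS1 (distance 2.30, Pearson r 0.97), UNC5B (2.44, 0.98), MAP1B (2.57, 0.98), CYP1A1 (2.60, 0.97) and TRAJ5 (2.95, 0.97). THBS1 encodes thrombospondin 1, UNC5B a netrin receptor, MAP1B a microtubule-associated protein and CYP1A1 a cytochrome P450. THBS1 had 1.21, 0.907 and 0.772 RPKM with DMSO and 50.9, 52.5 and 48.3 RPKM with FP54 in NB4 cells, and 0.771 ± 0.130 RPKM with FP54 against 1.06 ± 0.578 RPKM with DMSO in MOLM-13 cells. CYP1A1 stood at 0.0549 ± 0.0256 RPKM with DMSO and 3.46 ± 0.293 with FP54 in NB4 cells. TRAJ5, a T cell receptor joining segment, rests on 1 or 2 reads a library. All 5 genes had a DMSO mean under 1 RPKM in NB4 cells, so like HMOX1 they entered that fit only through their FP54 values. The ranking also used the contrast that chose HMOX1, so the high r values follow from the selection and are a description. All points of a line share its libraries and 591 of 9843 genes had an r over 0.9, so the order says little: ranking with a pseudocount of 1 shared 1 of the 5 genes, and ranking by r shared none.

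A further 5 sets of genes, 95 in all, cover the rest of heme and iron biology, and of these 66 were tested in MOLM-13 and 68 in NB4 cells. In MOLM-13 cells 3 rose and 9 fell, 4.55% and 13.6% of those tested, beside 9.3% and 9.04% of all genes. In NB4 cells 14 were past the call rule on the higher and 5 on the lower side, 20.6% and 7.35%, beside 18.6% and 10.7%. The NB4 counts belong to the contrast that chose HMOX1 and are a description. Each set below holds only 6 to 21 tested genes in a line, and its counts are to be read beside these shares of all genes.

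Heme synthesis, the pathway that runs opposite to HMOX1, had 1 of 6 tested genes higher and none lower in MOLM-13 cells, with a median log2 fold change of -0.08. The one was PPOX, protoporphyrinogen oxidase, which rose from 1.48, 1.21 and 1.23 RPKM to 3.18, 1.92 and 2.57 RPKM (0.89 ± 0.22 SE, limma adjusted p = 0.0217). Its call was lost without FP54 replicate 1 (0.73). In NB4 cells 1 of 8 was past the rule on each side, with a median of -0.19. FECH, ferrochelatase, which inserts iron into the ring, stood at 3.03 ± 0.137 RPKM with FP54 and 1.68 ± 0.282 with DMSO, and UROD, uroporphyrinogen decarboxylase, at 8.12 ± 0.706 against 12.2 ± 2.30 RPKM (SD, n = 3). UROD dropped below the fold cutoff without DMSO replicate 2 (-0.44) or FP54 replicate 1 (-0.50).

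Heme transport and binding had 1 of 10 tested genes higher and 2 lower in MOLM-13 cells, with a median of 0.07. HP, haptoglobin, the plasma protein that binds free hemoglobin, had 0.495, 0.536 and 0.756 RPKM with DMSO and 1.57, 2.25 and 1.83 RPKM with FP54 (1.51 ± 0.24 SE). Its DMSO mean is under the filter of 1 RPKM, so HP passed it only through its FP54 values, and although HP is in the count its p is not given as support. FLVCR1, first described as a heme exporter, fell from 2.94, 1.92 and 2.83 RPKM to 1.04, 1.10 and 1.57 RPKM (-0.995 ± 0.24 SE, limma adjusted p = 0.0185). ABCB10, a mitochondrial transporter needed for heme production, fell from 9.13 ± 2.72 to 5.10 ± 1.56 RPKM with overlapping values (-0.83, limma adjusted p = 0.0492). In NB4 cells 1 of 8 was past the rule on each side, with a median of -0.12. SLC48A1, which moves heme out of lysosomes to the cytosol, stood at 7.07, 7.71 and 6.84 RPKM with FP54 against 2.36, 2.60 and 2.11 RPKM with DMSO, 3.06 times the DMSO mean. ABCB10 stood at 14.2, 16.4 and 15.9 RPKM with FP54 against 33.8, 28.0 and 39.9 RPKM with DMSO. ABCB10 was thus lower with FP54 in both lines, called in MOLM-13 cells.

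Iron uptake, export and sensing had none of 15 tested genes higher and 3 lower in MOLM-13 cells, with a median of 0.12. SLC39A14, a zinc transporter that also carries iron, fell furthest, from 9.87, 4.09 and 7.94 RPKM to 0.671, 1.71 and 2.85 RPKM (-2.12 ± 0.45 SE, limma adjusted p = 0.0127). STEAP3, the reductase that turns endosomal iron into the form that leaves the endosome, had 2.05 ± 0.936 RPKM with DMSO and 0.748 ± 0.210 RPKM with FP54 with overlapping values (-1.25). It passed the filter only through its DMSO values, the FP54 mean being under 1 RPKM, and although STEAP3 is in the count its p is not given as support. In NB4 cells SLC25A37, mitoferrin, the mitochondrial iron importer of heme-making cells, was the one gene of 15 past the rule, at 16.3, 15.4 and 16.1 RPKM with FP54 against 10.4, 8.18 and 9.86 RPKM with DMSO, and the median was -0.03. The RNA of both iron regulatory proteins, which bind the hairpins shown above, moved little: the log2 fold changes of IREB2 and ACO1 were 0.12 and 0.08 in MOLM-13 cells, not called, and 0.01 and 0.00 in NB4 cells. These 2 were picked after their values were seen.

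Iron-sulfur cluster assembly, which takes up much of the mitochondrial iron, had none of 21 tested genes higher and 3 lower in MOLM-13 cells, with a median of -0.17. BOLA3, a late-acting assembly factor, fell from 3.61 ± 1.55 to 1.59 ± 0.580 RPKM with overlapping values (-1.09, limma adjusted p = 0.0481). FDX1, a mitochondrial ferredoxin, fell from 2.98, 2.46 and 3.23 RPKM to 1.44, 1.64 and 2.25 RPKM (-0.69, limma adjusted p = 0.0467). In NB4 cells 1 of 21 was past the rule on the higher and 3 on the lower side, with a median of -0.15. HSCB, a cochaperone of cluster transfer, stood at 5.76 ± 0.844 RPKM with FP54 against 3.69 ± 0.653 with DMSO, CIAO2A, of the cytosolic assembly machinery, at 49.6 ± 3.14 against 75.4 ± 7.83 RPKM, and NUBP2, a cytosolic scaffold protein, at 5.35 ± 0.436 against 8.09 ± 1.33 RPKM. HSCB dropped below the cutoff without DMSO replicate 1 (0.50), and NUBP2 without DMSO replicate 2 (-0.46).

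The regulators BACH1 and NRF2 act on many genes besides HMOX1, and 18 of their partners and shared targets were followed. In NB4 cells 10 of the 16 in the fit, 62.5%, were past the rule on the higher side and none on the lower, beside 18.6% and 10.7% of all genes. The median log2 fold change was 0.75 beside 0.07 for all genes. This contrast chose HMOX1, and the lists were chosen with earlier results known, so these counts are a description. SLC7A11, the cystine importer, stood at 10.5, 11.8 and 12.8 RPKM with FP54 against 1.76, 1.11 and 1.26 RPKM with DMSO, 8.51 times the DMSO mean. NQO1, a quinone reductase, stood at 84.3, 81.5 and 81.4 RPKM against 21.1, 24.3 and 23.7 RPKM. For both genes each FP54 library was higher than each DMSO library. The other 8 were NFE2L1, MAFF, MAFG, GCLM, TXNRD1, SRXN1, ME1 and SQSTM1, with log2 fold changes from 0.54 to 1.4, and SRXN1 entered the fit only through its FP54 values (0.673 ± 0.156 RPKM with DMSO). NFE2L2, the gene of NRF2 itself, had a log2 fold change of 0.29, and KEAP1, which targets NRF2 for degradation, one of -0.17, neither past the rule.

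In MOLM-13 cells 14 genes of this set were tested, of which 1 rose and 1 fell, 7.14% each beside 9.3% and 9.04% of all genes, and the median was -0.07 beside 0.00. SQSTM1, an autophagy receptor that also binds KEAP1, rose from 33.3, 56.8 and 38.7 RPKM to 92.3, 67.6 and 55.4 RPKM with overlapping values (0.75 ± 0.23 SE, limma adjusted p = 0.0462). MAFG, a small MAF protein that partners both regulators, fell from 34.3, 43.0 and 41.0 RPKM to 20.9, 21.7 and 24.5 RPKM (-0.81 ± 0.14 SE, limma adjusted p = 0.00620). In NB4 cells MAFG stood at 40.7, 41.0 and 38.9 RPKM with FP54 against 22.4, 23.4 and 22.8 RPKM with DMSO, the other way and with no overlap in either line. SLC7A11 and NQO1 were not called in MOLM-13 cells (0.37 and -0.07, limma adjusted p = 0.166 and 0.848), and the difference between the lines was not tested for any gene.

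Several of the MOLM-13 calls in these sets depend on single libraries. ABCB10, STEAP3, BOLA3, FDX1 and SQSTM1 each lost the call without DMSO replicate 1, DMSO replicate 3, FP54 replicate 1 or FP54 replicate 2, with log2 fold changes of -0.79 to -0.62 for ABCB10, -1.20 to -1.02 for STEAP3, -1.03 to -0.81 for BOLA3, -0.66 to -0.56 for FDX1 and 0.55 to 0.77 for SQSTM1. The count of genes that fell over the 5 sets, 9, was 4 without DMSO replicate 1, DMSO replicate 3 or FP54 replicate 1 and 5 without FP54 replicate 2, and the count that rose, 3, was 1 without FP54 replicate 1 and 5 without FP54 replicate 2.

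**Figure D5:**
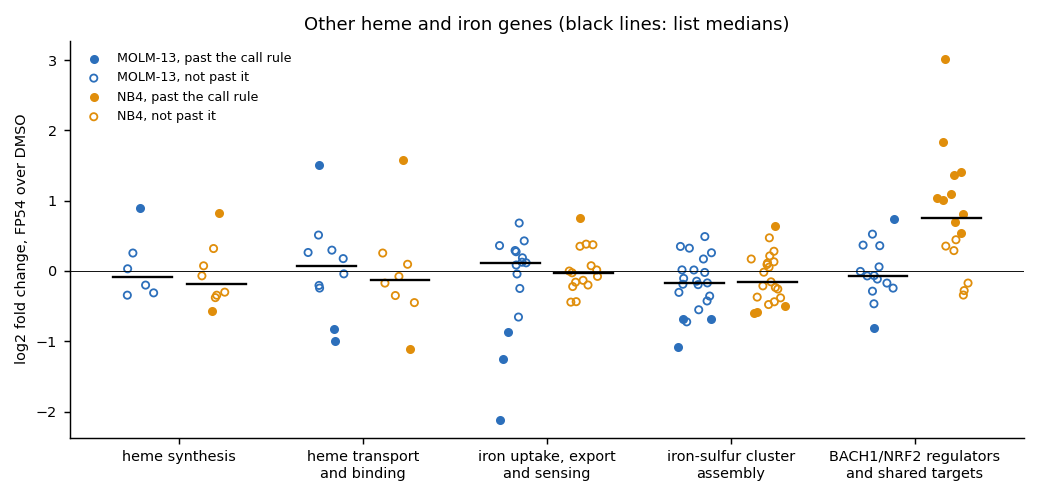
Fitted log2 fold change, FP54 over DMSO, of the tested genes of 5 heme and iron gene sets in MOLM-13 (blue) and NB4 cells (orange), with filled circles past the call rule and black lines at the set medians. In NB4 cells 10 of 16 BACH1 and NRF2 regulators and targets are past the rule above 0, beside 18.6% of all genes, with SLC7A11 at 3.02. These NB4 values are a description. In MOLM-13 cells 2 of 14 are past the rule, beside 18.3% of all genes, and SLC39A14 is the lowest point at -2.12.

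Markers of cells that handle much heme were read beside these results. Of 12 erythroid genes, 8 were at 0 in all DMSO libraries of each line, the hemoglobin genes HBA2, HBA1 and HBB among them. The summed level was 4.81 to 6.73 RPKM with DMSO and 5.51 to 6.44 with FP54 in MOLM-13 cells. In NB4 cells it was 1.13 to 1.70 and 2.76 to 2.98 RPKM. EPOR, the erythropoietin receptor, was the highest of the 12 in each group, with means of 5.60 and 5.93 RPKM in MOLM-13 and 0.937 and 1.51 RPKM in NB4 cells. The olfactory receptor mean in NB4 cells was at most 0.00373 RPKM with DMSO and at least 0.0497 RPKM with FP54. The part of this background in such low sums was not tested. The 12 macrophage genes summed to 194 to 206 RPKM with DMSO and 364 to 505 with FP54 in MOLM-13 cells, where 2 and 4 of them had a mean of 1 RPKM or more. In NB4 cells they summed to 9.01 to 11 and 18.1 to 22.5 RPKM, where 1 of them, CD68, reached that level with either treatment. CD68, a lysosomal glycoprotein that myeloid cells also express, made up most of the sum, with means of 192 and 418 RPKM in MOLM-13 and 9.44 and 18.8 RPKM in NB4 cells, and the complement genes C1QB and C1QC were at 0 in all MOLM-13 libraries with DMSO, as CD163, the hemoglobin scavenger receptor, was in those of NB4 cells. The macrophage sum moved with ferritin in both lines, and its part in the ferritin result was not tested. Of 10 lymphocyte genes, whose sums were 74.8 to 79.8 and 72.3 to 79.0 RPKM in MOLM-13 and 43.0 to 68.6 and 95.1 to 102 RPKM in NB4 cells, NKG7 led in every group, and its part was likewise not tested. In NB4 cells MPO, the myeloperoxidase of promyelocytes, had a mean of 2170 RPKM with DMSO and 1116 RPKM with FP54, beside the HMOX1 and ferritin values of the same libraries, and its part was not tested.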

How the data were processed

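RNA-seq libraries of MOLM-13 and NB4 cells (12 of the 22 samples in the labels) were used, and the other 10, of m6A-seq and polysome-seq, were not analysed here. Per the labels and the methods, the authors sequenced polyadenylated RNA, and reads were trimmed with cutadapt 4.8, stripped of duplicates, aligned to hg38 with STAR 2.7.11b and counted on genes with featureCounts 2.0.3, and versions are from the submitters' processing notes. The authors deposited the values as RPKM, and the cell line of each table rests on the table's name. Column names give treatment and replicate. Removing duplicate reads by sequence can lower abundant transcripts such as ferritin.

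Gene lengths from GENCODE v44 were found for 20330 of 20411 genes, and gave whole reads (within 0.05) for 98.5 to 99.3% of low values. Values were taken as log2(RPKM + 0.1), genes averaging under 1 RPKM in a line's 6 libraries were dropped, and limma 3.58.1 in R 4.3.3 (lmFit, eBayes with a trend) was run in each line, with Benjamini-Hochberg adjustment over all of them. The call rule, an unadjusted p under 0.01 and a change of 0.5 or more on the log2 scale, is that of the study's methods, which fitted counts instead. Fold changes on this scale understate those of low genes. Sequences came from the GENCODE transcripts and hg38. Python 3.11.15 with numpy 2.4.6, pandas 2.3.3, scipy 1.17.1 and matplotlib 3.10.9 was used. Besides the 10 genes, those named in each set are up to 2 per line and direction with the largest fitted change among the called ones, and those most like HMOX1 are the 5 nearest by distance. The members and lists were chosen with earlier results of these data known, and the lists were written from general knowledge. The fit was tested on simulated data. Alternatives were other pseudocounts, filters, scalings and cutoffs, a replicate block, eBayes without a trend, limma-voom on recovered reads and leaving out each library.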

Additional observations from a re-analysis of the deposited data

Results flagged for a closer look

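TFRC and MAFG had fitted changes of opposite sign in the 2 lines, with no overlap between treatments in either. TFRC had a log2 fold change of -0.89 in MOLM-13 and 0.36 in NB4 cells, and MAFG one of -0.81 and 0.81. TFRC in NB4 cells was not past the call rule. The differences between the lines were not tested, the TFRC groups in NB4 cells part by less than 1 RPKM, and the lines were normalized in separate tables. Groups of 3 libraries are too small for a search for outlying libraries.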

How the results depend on the processing

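No gene of the 10 changed direction under any alternative run. Without a filter on low values, 1 of the 10 was called higher in MOLM-13 cells in place of 3, with FTH1 (limma adjusted p = 0.191) and FTL (limma adjusted p = 0.493) not called, and 1 was called lower in NB4 cells in place of 2, as with a filter at a mean RPKM of 5, while a pseudocount of 1 left 0. Of the 5 other sets, no filter gave 3 lower in MOLM-13 cells (9 in the reported fit) and 23 higher and 3 lower in NB4 cells (14 and 5), the filter at 5 gave 1 higher (3) and 3 lower in MOLM-13 and 9 higher in NB4 cells, quantile normalization gave 6 higher and limma-voom 5 higher in MOLM-13 cells, and median-ratio scaling gave 10 lower in NB4 cells. PPOX in NB4 cells reversed with quantile normalization (-0.11). Without 1 library at a time, the count of the 10 called higher in MOLM-13 cells was 2 to 4 and called lower 1 to 2 (1 to 2 lower in NB4 cells), and the count of other genes was 1 to 5 higher and 4 to 12 lower in MOLM-13 cells. Values near 0 changed sign over these fits: in MOLM-13 cells SLC25A37 from -0.20 to 0.12, HSCB from -0.103 to 0.121 and NQO1 from -0.205 to 0.0523, and in NB4 cells SLC39A14 from -0.207 to 0.0160. The cause of these changes was not tested.

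Replicate numbers are shared between treatments. The deviations of same-numbered libraries had correlations of -0.262, -0.134 and -0.0577 in MOLM-13 and -0.143, 0.0748 and 0.123 in NB4 cells. No MOLM-13 library correlated best with its own number. The highest correlations in that line were between different numbers: 0.593 for DMSO 1 with FP54 3, 0.494 for DMSO 2 with FP54 1 and 0.475 for DMSO 3 with FP54 2. In NB4 cells DMSO 3 was highest with FP54 3 (0.123), DMSO 1 with FP54 3 (0.22) and DMSO 2 with FP54 1 (0.177). Deviations within a group of 3 sum to 0, so these correlations cannot show whether libraries with the same number are paired. With the replicate block, 817 genes were called higher and 880 lower in MOLM-13 cells, against 903 and 878, and HMOX1 passed the call rule there (0.89, limma adjusted p = 0.0369). The depth of FP54 replicate 2 in MOLM-13 cells, 5829731 reads, limits what can be said of HMOX1, BLVRA and HP, and SLC40A1 was not detectable there above the floor. Groups of 3 libraries limit every test.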
